A study of Rattus norvegicus with 8 samples.

Results

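The 10 genes described here are Fibcd1, Mpped1, Wfs1, Gpr161, Ccn3, Man1a1, Adgrl2, Myh7, Ankrd63 and Rasl11b, a set of genes for membrane, secreted and enzyme proteins chosen by their signal in the CA1 control arrays of this series or as known markers of CA1 pyramidal cells. All probe sets whose single annotated symbol is one of them were used, which gave 15 of 31099 probe sets on the array, and each of the 10 genes, of 14217 genes with a probe set of their own, was measured. Total RNA came from rat hippocampal slice cultures, thin explants kept alive in a dish, from which the CA1 or the CA3 field had been dissected. Each array holds a pool of 15 cultures at 7 days. There was 1 CA1 lesion array and 3 CA1 control arrays, and 1 CA3 lesion array and 3 CA3 control arrays. Both lesion arrays carry the number 1 in their titles, as do CA1 control 1 and CA3 control 1. What the number stands for is not stated. What the lesion was and when day 0 fell are not stated in the labels, and neither are age, strain and sex of the animals. The question that the design allows is whether the genes separate the fields, and whether their signal in a field differs between lesion and control.

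Most excitatory neurons of the hippocampus proper are pyramidal cells, which lie in the fields CA1 and CA3. CA3 neurons send the Schaffer collateral axons to CA1, and CA1 sends the main output of the hippocampus to the subiculum and cortex. Although their pyramidal cells share most genes, a small number of transcripts marks each field, and several of these encode proteins of the cell surface, the secretory pathway or signalling. Fibcd1 encodes a transmembrane receptor that binds acetylated ligands such as chitin. Adgrl2 encodes latrophilin 2, an adhesion receptor that in the mouse sits on CA1 dendrites where entorhinal axons end. Gpr161 encodes an orphan receptor of the primary cilium that restrains Hedgehog signalling. Wfs1 encodes wolframin, a protein of the endoplasmic reticulum membrane that is lost in Wolfram syndrome, and Man1a1 encodes a Golgi mannosidase that trims N-linked glycans. Mpped1 encodes a protein with a metallophosphoesterase domain, Rasl11b a small GTPase-like protein, Ccn3 a secreted matricellular protein, and Myh7 the slow or beta-cardiac myosin heavy chain. Ankrd63 encodes a protein with ankyrin repeats, so the set is not made of membrane proteins and enzymes alone.

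The rule for choosing the genes did not use the lesion arrays. The sequences before the transcript starts are shown for the 3 genes with the largest differences between fields in those arrays. They are the 250 bases before the start in RefSeq on build GRCr8, written 5′ to 3′ on the gene's strand: chr3:35524143-35524392 (minus strand) for Fibcd1, chr2:240495300-240495549 (minus strand) for Adgrl2 and chr7:116824504-116824753 (plus strand) for Mpped1. Capitals mark the GC box GGGCGG, the TATA box TATAAA, the CCAAT box and the octamer ATGCAAAT bound by POU factors, each searched on both strands.
Fibcd1: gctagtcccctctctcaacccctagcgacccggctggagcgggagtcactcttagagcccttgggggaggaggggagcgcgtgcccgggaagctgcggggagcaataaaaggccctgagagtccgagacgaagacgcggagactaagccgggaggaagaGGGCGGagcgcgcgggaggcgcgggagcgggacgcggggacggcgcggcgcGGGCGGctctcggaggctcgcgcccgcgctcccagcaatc
Adgrl2: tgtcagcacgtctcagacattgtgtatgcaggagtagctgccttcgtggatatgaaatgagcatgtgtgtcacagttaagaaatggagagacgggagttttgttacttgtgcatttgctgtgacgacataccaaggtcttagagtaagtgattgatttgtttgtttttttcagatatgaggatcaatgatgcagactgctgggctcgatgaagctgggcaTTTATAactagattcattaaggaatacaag
Mpped1: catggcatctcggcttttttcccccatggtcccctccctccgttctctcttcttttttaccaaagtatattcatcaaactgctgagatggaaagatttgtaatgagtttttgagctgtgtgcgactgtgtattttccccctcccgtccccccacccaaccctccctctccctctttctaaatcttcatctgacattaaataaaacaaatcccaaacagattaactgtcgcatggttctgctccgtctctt
Fibcd1 had 2 GC boxes in a window of 72.0% G and C, whereas Adgrl2, at 41.2%, held only a TATA motif on the opposite strand and Mpped1, at 45.2%, held none of the 4 motifs. A RefSeq sequence was found for 9 of the 10 genes, of which Gpr161 had 2. A GC box stood before 6 of these 9 genes (Fibcd1, Wfs1, Gpr161, Man1a1, Ankrd63 and Rasl11b), against 30.5% of 33469 promoter windows of the same length. A CCAAT box stood before 5 of them, against 34% of all windows, and a TATA motif before 2, against 12.9%. The octamer stood before 0 of them, against 1.56%. None of the 4 motifs stood before all of the genes, and a match of letters is no evidence of binding.

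All values below are linear signal intensities as deposited, and all differences are on the log2(intensity + 16) scale. Levels are compared between arrays, for 1 probe set or for the sum or median of a list, never between probe sets. The 8 arrays had nearly equal trimmed means of 2501, and the ratio of 3′ to 5′ signal for Gapdh, a measure of RNA degradation, ran from 3.71 in CA1 control 1 to 5.23 in the CA3 lesion array. The field labels were set beside other markers, in lists chosen with earlier results of these data known. Of 5 tested CA1 markers outside the set, 5 were higher in the CA1 controls with an adjusted p below 0.05 in limma (median difference 2.33 against 0.04 over all 18625 probe sets tested; 0.242% of those passed as higher in CA1). Of 8 tested CA3 markers, 6 were lower in the CA1 controls and 2 higher (Coch at 0.88 and Prkcd at 0.19, named after their values were seen, neither past the threshold), with a median of -0.80; 2 passed as higher in CA3, namely Nectin3 (CA1 minus CA3 -1.69, limma adjusted p = 0.0138) and Cpne4 (-3.08, limma adjusted p = 0.0158), where 0.285% of all probe sets did.

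The clearest separation of the fields came from Fibcd1, Mpped1 and Adgrl2. Fibcd1 (probe set 1390677_at) had an intensity of 7765 in the CA1 lesion array and 10809.9, 9535 and 8009 in CA1 controls 1 to 3, against 744 in the CA3 lesion array and 782, 1078 and 298 in CA3 controls 1 to 3. Every CA1 array thus stood several-fold above every CA3 array, whether lesioned or not. The CA1 controls averaged 9451 ± 1402 and the CA3 controls 719 ± 394 (SD, n = 3 each), a difference of 3.86 or 14.5-fold. Mpped1 (1388968_at) stood at 43227 in the CA1 lesion array and at 75393, 58331 and 34607 in the CA1 controls, against 5228 in the CA3 lesion array and 4926, 4217 and 3364 in the CA3 controls. Its CA1 controls spread 2.18-fold, yet the lowest of them was well above the highest CA3 array. Adgrl2 (1369644_at) stood at 4178 in the CA1 lesion array and 4179, 4679 and 3017 in the CA1 controls, against 486 in the CA3 lesion array and 692, 233 and 291 in the CA3 controls. The CA3 values of Adgrl2 spread 2.97-fold between controls, while its CA1 values spread 1.55-fold.

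Gpr161, Rasl11b and Ankrd63 also separated the fields on every array, with smaller differences. Gpr161 (1384546_at) had 9075 in the CA1 lesion array and 12729, 10757 and 9624 in the CA1 controls, against 2526 in the CA3 lesion array and 2883, 3245 and 1682 in the CA3 controls. Rasl11b (1383322_at) had 11368 in the CA1 lesion array and 18441, 11617 and 11648 in the CA1 controls, against 3430.2 in the CA3 lesion array and 2891, 2809 and 3289 in the CA3 controls. The CA3 controls of Rasl11b lay within 1.17-fold of each other, the tightest of the set. Ankrd63 (1397721_at) had 2948 in the CA1 lesion array and 4547, 2436 and 2488 in the CA1 controls, against 1364 in the CA3 lesion array and 631, 549 and 506 in the CA3 controls. Its CA3 lesion value lay between the fields, above all CA3 controls and below all CA1 arrays.

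Wfs1, Ccn3 and Myh7 kept the same order with more spread or lower signal. Wfs1 (1387356_at) had 1133 in the CA1 lesion array and 2413, 2255 and 1077 in the CA1 controls, against 345 in the CA3 lesion array and 934, 237 and 199 in the CA3 controls. CA3 control 1 came close to CA1 control 3, and the difference between control means, 2.29, was 2.97 without CA3 control 1. Ccn3 (1368883_at) had 7962 in the CA1 lesion array and 5322, 6746 and 4086 in the CA1 controls, against 3413 in the CA3 lesion array and 1807, 1378 and 2934 in the CA3 controls. Both of its lesion values were the highest of their field. Myh7 (1386993_at) had 1609 in the CA1 lesion array and 1410.1, 1564 and 1031 in the CA1 controls, against 579 in the CA3 lesion array and 81, 192 and 91 in the CA3 controls. Its CA3 controls were near the dim end of the array, where a fold change on this scale is an understatement.

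Man1a1 hardly differed between fields. Its brighter probe set (1371988_at) had 4261 in the CA1 lesion array and 3710.3, 2928 and 2806 in the CA1 controls, against 2894 in the CA3 lesion array and 2517, 2740.4 and 2023 in the CA3 controls. The control groups did not overlap, but the lowest CA1 control exceeded the highest CA3 control by little, and the CA3 lesion array exceeded CA1 control 3. The difference between control means was 0.37, and that of the second probe set (1383574_at) was 0.33, with overlapping controls. The control data therefore go against counting Man1a1 among genes clearly high in CA1.

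In the controls, from which the genes were chosen, CA1 lay above CA3 without overlap for 10 of 10 genes by their brightest probe set, where 8.85% of all probe sets tested did. The median difference was 2.34, between 0.37 for Man1a1 and 3.86 for Fibcd1. Over all probe sets 0.526% passed between the control fields and 8.31% had an unadjusted p under 0.05. The values of the 10 genes describe how they were picked and are given with no test. In pooled bulk tissue, fewer cells of a type and less RNA per cell cannot be told apart.

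**Figure D1:**
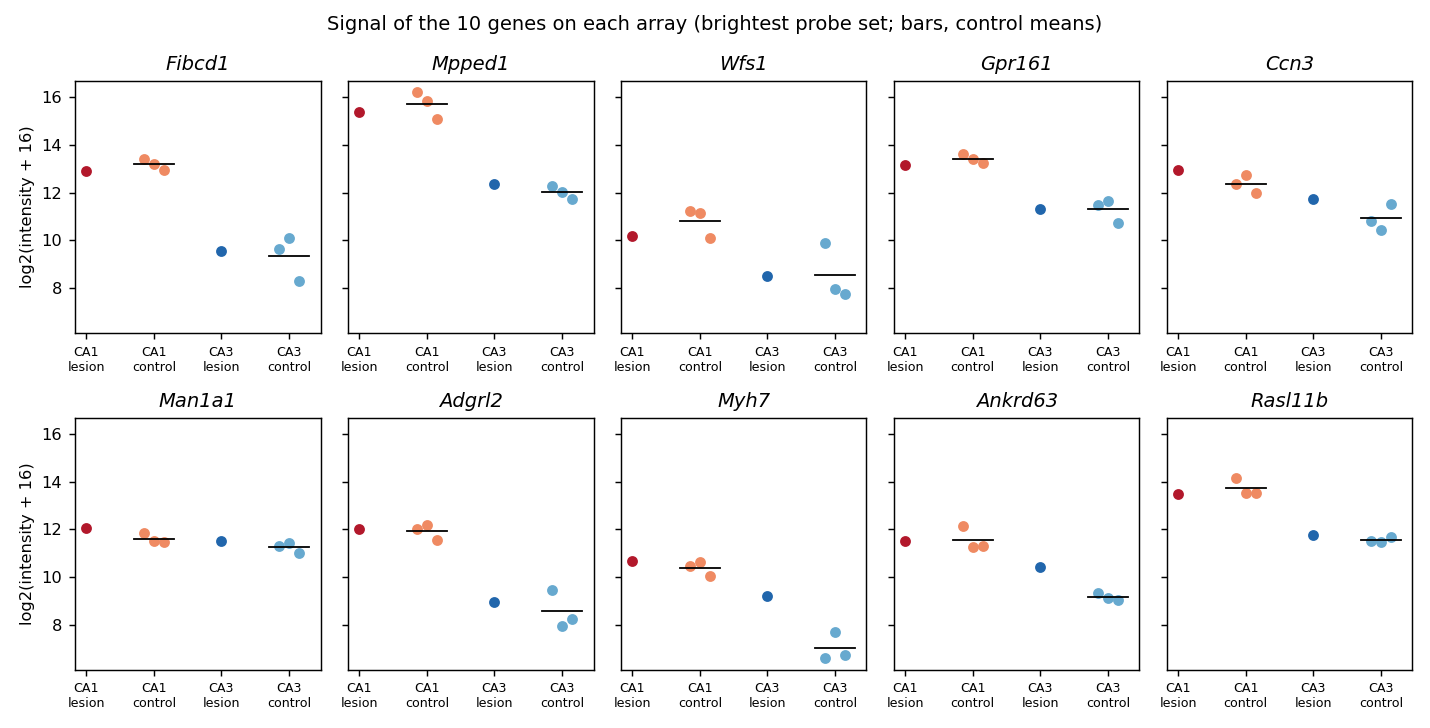
Log2(intensity + 16) of each gene on each array, by the brightest probe set, for the CA1 lesion, CA1 control, CA3 lesion and CA3 control arrays; points are arrays and bars are control means. The CA1 arrays stand above the CA3 arrays for 9 of the 10 genes, and for Man1a1 the CA3 lesion array exceeds CA1 control 3.

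The other probe sets of 5 of the genes were less informative. Gpr161 had a second probe set (1391025_at) with 943 in the CA1 lesion array and 671, 1269 and 852 in the CA1 controls, against 437 in the CA3 lesion array and 521, 563 and 329 in the CA3 controls, the same order with a control difference of 0.95. The second probe sets of Mpped1, Adgrl2 and Myh7 had mean signals at the 33.4, 8.73 and 11.8 percentile of all probe sets and were not tested. Their control differences were 0.89, 0.03 and 0.16, so that the averages over all probe sets of a gene fell to 2.29 for Mpped1, 1.70 for Adgrl2 and 1.76 for Myh7. The dim Adgrl2 probe set (1369643_a_at) had 537 in the CA1 lesion array, against 54 in the CA3 lesion array and 17 to 163 in the 6 controls of both fields. A probe set annotated to both Myh7 and Myh6, its close relative, had 2177 in the CA1 lesion array and 1509, 2661 and 1742 in the CA1 controls, against 729.9 in the CA3 lesion array and 1335, 451 and 456 in the CA3 controls. Its CA1 minus CA3 difference was 1.53 in the controls and 1.56 in the lesion arrays. A dimmer probe set annotated to both genes, at the 7.59 percentile, overlapped between the fields. It had 38 to 229 in the CA1 controls and 16 to 221 in the CA3 controls, a difference of 0.40.

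The lesion arrays gave a measure of the field difference in arrays that the rule for choosing the genes did not use. They are not fully independent of the choice. Earlier results of these data were known, and a gene's brightest probe set was taken by its mean over all 8 arrays. CA1 exceeded CA3 in the lesion arrays for 10 of 10 genes, where 49.5% of all probe sets did, and at least 2-fold for 9 of them, where 6.87% did. The CA1 lesion array lay above all 4 CA3 arrays for 10 of 10 genes (21.8% of all probe sets), and the CA3 lesion array below all 4 CA1 arrays for 9 of 10, the exception being Man1a1 (21.9% of all probe sets). The median difference was 1.70, against -0.01 over all probe sets tested. Fibcd1 differed by 3.36 ± 0.70 (SE, 1 array per field, 95% interval 1.79 to 4.92), or 10.2-fold. Adgrl2 differed by 3.06 ± 0.72 (interval 1.46 to 4.66) and Mpped1 by 3.04 ± 0.47 (interval 2.00 to 4.09), more than 8-fold each. With a gene's probe sets averaged, the difference in the lesion arrays was 1.68 for Mpped1, 0.40 for Myh7 and 3.02 for Adgrl2. Gpr161 differed by 1.84 ± 0.45, Rasl11b by 1.72 ± 0.38 and Ccn3 by 1.22 ± 0.52, with intervals that lay above 0.

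For Wfs1 (1.67, interval -0.68 to 4.02), Myh7 (1.45, -0.72 to 3.62), Ankrd63 (1.10, -0.13 to 2.33) and Man1a1 (0.56, -0.32 to 1.43) the interval held 0. After adjustment over all 18625 probe sets, 0 of the 10 genes passed in limma, as did 0% of all probe sets, with adjusted p-values from 0.158 for Mpped1 to 1.00. Of the 10 genes, 6 had an unadjusted p under 0.05, where 5.06% of all probe sets had. The errors borrow their spread from the controls, because there was 1 lesion array per field. Those controls are the arrays from which the genes were chosen, and such a choice can favour genes with a small spread. Its part in these intervals and p-values was not tested. The same 5 CA1 markers outside the set were also higher in CA1 here, among them the transcription factors Bcl11b, at 2.74, and Pou3f1, at 2.87, and the LIM-domain cofactor Ldb2, at 2.76 (limma adjusted p = 0.247 to 0.508 over the 5).

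**Figure D2:**
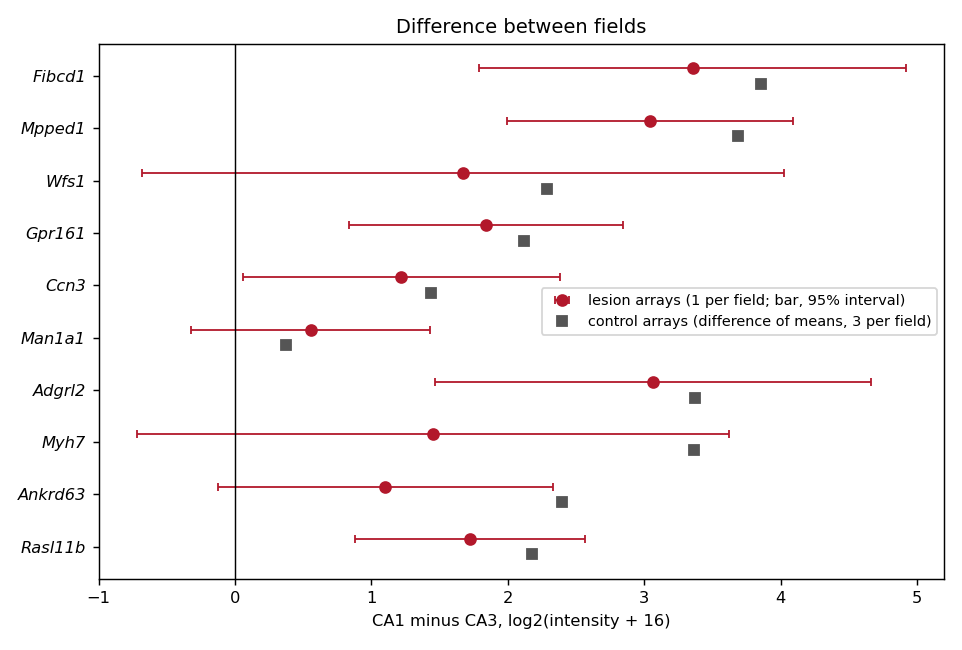
Difference of CA1 minus CA3 for each gene on the log2(intensity + 16) scale, in the lesion arrays (red circles, 1 array per field, with the 95% interval of the limma fit) and in the control arrays (grey squares, difference of means of 3 per field). All 20 points lie right of 0, and the intervals of Wfs1, Man1a1, Myh7 and Ankrd63 cross it. The intervals take their spread from the controls, from which the genes were chosen.

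Within CA1, the lesion array lay on either side of the controls. It lay within the range of the 3 controls for Mpped1, Wfs1, Adgrl2 and Ankrd63, above all of them for Ccn3, Man1a1 and Myh7, and below all of them for Fibcd1, Gpr161 and Rasl11b. That is 3 of 10 above, where 21.2% of all probe sets were, and 3 of 10 below, where 24.8% were. Ccn3 was 0.59 ± 0.43 (SE) higher in the CA1 lesion array, Man1a1 0.45 ± 0.32 and Myh7 0.29 ± 0.80. Wfs1 had the largest difference in size, -0.66 ± 0.86, though its lesion value lay within the range of the controls. Fibcd1 differed by -0.27 ± 0.57, Gpr161 by -0.27 ± 0.37 and Rasl11b by -0.25 ± 0.31. In limma the adjusted p was 0.999 for each of the 10 genes, so that 0 passed, and 0 had an unadjusted p under 0.05 (over all probe sets, 0% and 3.63%). The 95% interval of the CA1 lesion effect was widest for Wfs1, from -2.58 to 1.26, and narrowest for Rasl11b, from -0.94 to 0.44. These intervals bound the effect but do not show that there was none. The CA1 controls are also among the arrays from which the genes were chosen. A lower value in the CA1 lesion array and a result of that choice cannot be told apart.

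Within CA3, the lesion array lay above all 3 controls for 6 of 10 genes, namely Mpped1, Ccn3, Man1a1, Myh7, Ankrd63 and Rasl11b, and below all of them for 0; of all probe sets, 29.7% lay above and 24.8% below. The CA3 controls are among the arrays from which the genes were chosen. A higher value in the CA3 lesion array and a result of that choice cannot be told apart here. The largest differences were those of Myh7, at 2.20 ± 0.80 (SE) or 4.60-fold, and Ankrd63, at 1.26 ± 0.45 or 2.40-fold. Their 95% intervals, 0.43 to 3.97 and 0.26 to 2.27, lay above 0, but neither gene passed the adjustment over all probe sets (limma adjusted p = 0.908 for Myh7 and 0.892 for Ankrd63). The brighter probe set shared by Myh7 and Myh6 did not show such a difference: its CA3 lesion value lay among the CA3 controls. The brightest Myh7 probe set passed the filter by its mean, at the 49.1 percentile, to which the brighter CA1 arrays contributed. Its CA3 controls alone had a mean of 7.01 on the log2 scale. That is below the 7.28 in the CA3 controls of the second Mpped1 probe set, which was too dim to be tested. The CA3 difference of Myh7 was thus measured against dim controls. With a gene's probe sets averaged, the CA3 lesion effect of Myh7 was 1.19. Ccn3 was 0.81 ± 0.43 higher, Mpped1 0.34 ± 0.38, Man1a1 0.26 ± 0.32 and Rasl11b 0.20 ± 0.31. The second probe set of Man1a1 went the other way, with 1065 in the CA3 lesion array against 1365, 1239 and 1582 in the CA3 controls. In all, 0 of 10 genes passed, against 0% of all probe sets, and 2 of 10 had an unadjusted p under 0.05, against 4.68%. The CA3 lesion array also had the highest Gapdh 3′/5′ ratio, 5.23 against 3.84, 3.75 and 3.93 in the CA3 controls, while its Actb ratio, 19.8, lay within the 15.0 to 21.4 of those controls. Its summed intensity of 13 striated muscle genes was 62169.7 against 42002 to 47319 in the CA3 controls, although the median gene of that list, at -0.13 relative to its mean over the arrays, lay within the -0.54 to 0.40 of the controls. Its sum of 9 endothelial and mural genes was 4198 against 2032 to 2722. The part of these in the values of Myh7 and Ankrd63 was not tested.

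Ccn3, Man1a1 and Myh7 lay above all controls of their field in both lesion arrays, 3 of 10 genes where 7.98% of all probe sets did. The mean lesion effect of both fields was 0.70 ± 0.30 (SE) for Ccn3, 0.36 ± 0.23 for Man1a1 and 1.25 ± 0.56 for Myh7, with limma adjusted p-values of 0.771, 0.811 and 0.771. Of all 10 genes, 0 passed and 1 had an unadjusted p under 0.05, against 0% and 6.41% of all probe sets. For Man1a1 and Myh7 this rests on the brightest probe set. The second one of Man1a1 lay within the controls in CA1 and below them in CA3, and the dim second one of Myh7, like the brighter one shared with Myh6, lay within the controls in both fields. With a gene's probe sets averaged, the mean lesion effect was 0.51 for Myh7 and 0.12 for Man1a1.

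The lesion effect was lower in CA1 than in CA3 for 9 of the 10 genes, all but Man1a1, where 51% of all probe sets went this way. The test of this difference gave -1.91 ± 1.13 (SE) for Myh7 and -1.30 ± 0.64 for Ankrd63, with limma adjusted p-values of 1.00, and 0 of 10 genes passed or had an unadjusted p under 0.05 (0% and 3.09% of all probe sets). The control arrays in this difference are those in which the genes were high in CA1 when they were chosen. A lower lesion effect in CA1 and a result of that choice cannot be told apart in this comparison. The lesion effects of the 2 fields share no array, but each uses the controls that enter the field difference of the controls.

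**Figure D3:**
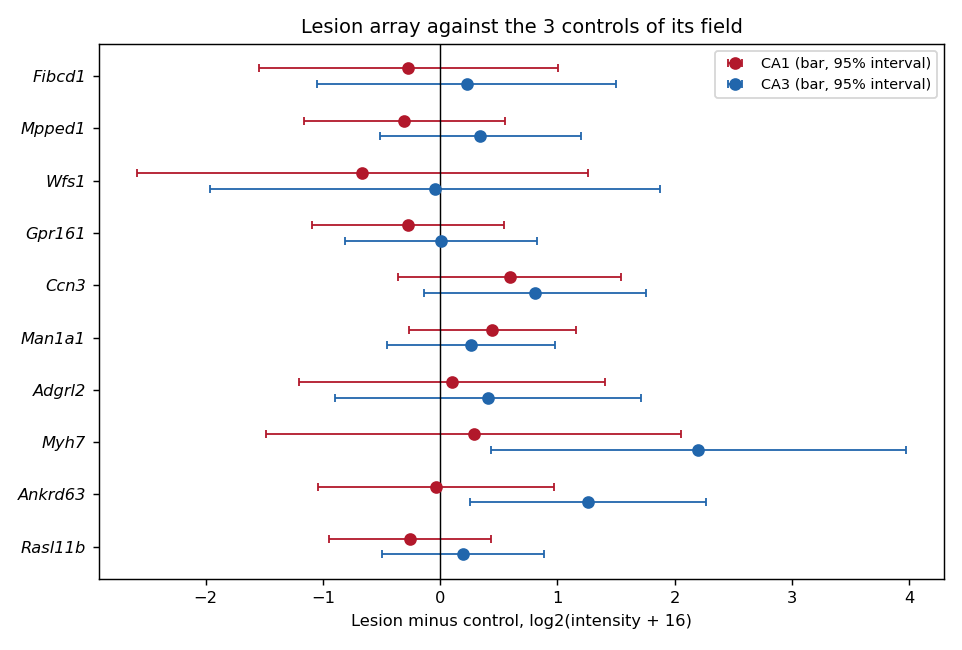
Lesion array minus the mean of the 3 controls of its field for each gene, on the log2(intensity + 16) scale, in CA1 (red) and CA3 (blue), with 95% intervals of the limma fit. The controls are those from which the genes were chosen. The intervals of Myh7 and Ankrd63 in CA3, from 0.43 to 3.97 and from 0.26 to 2.27, are the only ones of the 20 that do not cross 0.

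The control arrays of a field differed among themselves in these genes. Control 3 was the lowest CA1 control for 8 of the 10 genes, where it was for 35.1% of all probe sets, and the lowest CA3 control for 6 of 10, where it was for 36.3%. Control 1 was the highest CA1 control for 7 of 10 genes (32% of all probe sets). Between the CA3 controls, Wfs1 spread 4.70-fold and Fibcd1 3.62-fold, the most of the set, and in CA1 the most variable were Wfs1 and Mpped1, at 2.24-fold and 2.18-fold. Ccn3 and Rasl11b went against this order in CA3, where control 3 held their highest value.

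Marker lists of other cells also differed between the arrays. The summed intensity of 14 microglia and macrophage genes was 146710 in the CA1 lesion array and 7621, 18109 and 103480 in CA1 controls 1 to 3, against 104820 in the CA3 lesion array and 7052, 13149 and 86002 in CA3 controls 1 to 3. The control in which most of the 10 genes were lowest, control 3, was thus the one with the highest microglial signal in both fields. In the lesion arrays 10 of 10 tested microglia genes were above the control mean in each field, with median differences of 2.68 in CA1 and 2.23 in CA3, and 0 of them passed. The summed intensity of 8 myelin genes was 620224 in the CA1 lesion array and 62383 to 668142 in the CA1 controls, against 682564 in the CA3 lesion array and 80802 to 503344 in the CA3 controls. No gene of these lists was at 0 on any array, the lowest value being 33.8 for microglia and 83.6 for myelin genes.

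The summed intensity of 17 pan-neuronal and glutamatergic genes was 287355 in the CA1 lesion array and 291440 to 414296 in the CA1 controls, against 396240 in the CA3 lesion array and 410415 to 571405 in the CA3 controls. In CA1 its order over the controls, 414296, 374257 and 291440 in controls 1 to 3, was that of the summed intensity of the 10 genes, which was 93527 in the CA1 lesion array and 138955, 110848 and 78392 in CA1 controls 1 to 3. Both sums in the CA1 lesion array lay below controls 1 and 2 and nearest to control 3. Bright probe sets weigh most in a sum: Mpped1 alone gave 75393, 58331 and 34607 in CA1 controls 1 to 3. The median of the 10 genes, relative to the mean over the arrays, kept that order in controls 1 to 3, at 1.59, 1.31 and 0.89. In CA3 too, both sums fell from control 1 to control 3. They were 18143, 16678 and 14677 for the 10 genes, and 571405, 565479 and 410415 for the pan-neuronal genes. In the CA3 lesion array the sum of the 10 genes was 21009.7, above its controls, while the pan-neuronal sum was below its controls. Between fields, 13 of 17 pan-neuronal genes were lower in the CA1 than in the CA3 controls (median CA1 minus CA3 -0.38); 1 gene passed in each direction, the vesicular glutamate transporter gene Slc17a6 at 2.09 and the neurofilament gene Nefl at -1.13 (limma adjusted p = 0.0278 for each). Some summed lists for other cells of the slice also separated the fields. The summed intensity of 8 meningeal and fibroblast genes was 17294 in the CA1 lesion array and 17843 to 20675 in the CA1 controls, against 42755 in the CA3 lesion array and 38443 to 46973 in the CA3 controls, and 7 of the 8 were lower in the CA1 controls (median -0.81). The summed intensity of 9 interneuron genes was 73779 in the CA1 lesion array and 74498 to 131196 in the CA1 controls. In CA3 it was 50466 in the lesion array and 56464 to 70251 in the controls. This sum included Cck, at 22234 to 33964 in the CA1 controls and 4548 to 7874 in the CA3 controls. By its median gene, relative to the mean over the arrays, the interneuron list overlapped between fields. It stood at -0.20 in CA1 control 3 and at -0.13 in CA3 control 1. Of these lists, 1 of 8 meningeal and fibroblast genes (Ptgds, CA1 minus CA3 -5.66) passed as lower and 1 of 8 interneuron genes (Cck, which pyramidal cells make too) as higher in the CA1 controls, and 0 of 5 CA2, 4 dentate granule cell, 9 astrocyte and 4 endothelial and mural genes passed. The part of the cell makeup in the values of the 10 genes was not tested.

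**Figure D4:**
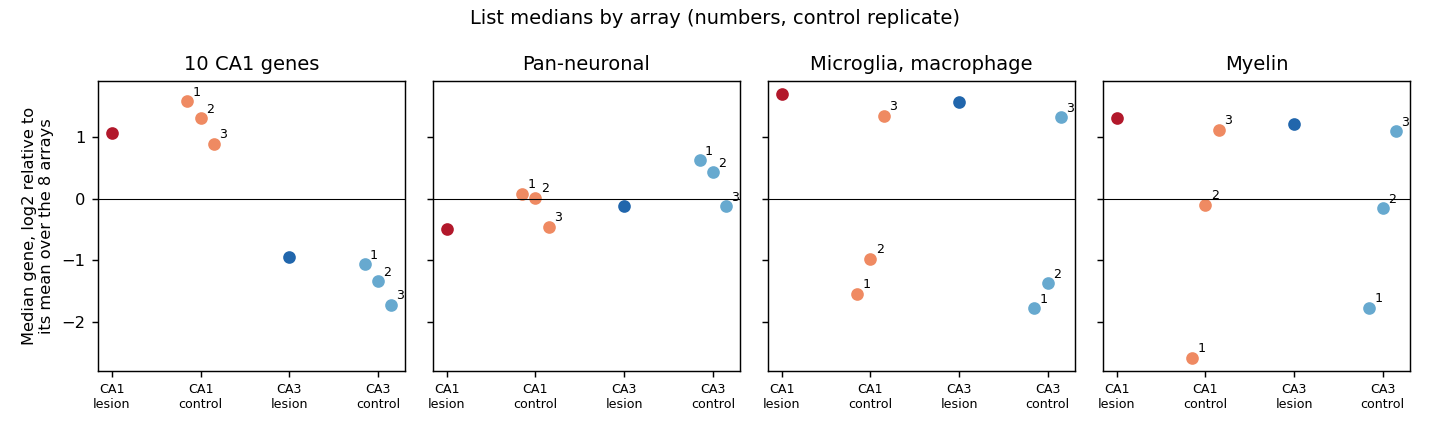
Median gene of 4 lists on each array, as log2(intensity + 16) relative to the gene's mean over the 8 arrays, for the 10 CA1 genes, pan-neuronal, microglia and macrophage, and myelin genes; numbers mark the control replicates. The 10 genes stand at 0.89 to 1.59 in the 4 CA1 arrays and at -1.73 to -0.95 in the 4 CA3 arrays, while the microglia list separates control 3 and the lesion arrays from controls 1 and 2 in both fields.

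Among relatives and pathway partners of the 10 genes, no list gave a gene that passed. Of 7 tested latrophilins and latrophilin ligands, 0 passed in the controls and 5 were higher in CA1 (median 0.42 against 0.04 over all probe sets). The adhesion ligands Flrt1 and Flrt3 had the smallest p and opposite signs, at 0.92 and -0.77 in the controls and at 1.97 and -1.06 in the lesion arrays (limma adjusted p = 0.563, 0.568, 0.710 and 1.00).  Mpped2, the relative of Mpped1, differed by -0.49 ± 0.33 (SE) in the controls and -0.04 ± 0.57 in the lesion arrays. Over 6 relatives of Mpped1, Fibcd1 and Ankrd63, 2 were higher in the CA1 controls (median -0.22) and 0 passed.

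Of 16 tested genes of protein folding and stress in the endoplasmic reticulum, the compartment of Wfs1, 6 were higher and 10 lower in the CA1 controls, with a median of -0.04 and 0 past the threshold. The chaperone gene Calr had the smallest p, at 0.67 ± 0.16 in the controls (limma adjusted p = 0.172), and differed by -0.43 ± 0.28 in the lesion arrays. Of 11 N-glycan processing genes 0 passed (median 0.07), with the glucosidase Mogs, which acts before Man1a1, at 0.43 ± 0.21. Of 10 Hedgehog and cilium genes 0 passed (median -0.01), with the transcription factor Gli2 at -1.19 ± 0.64 and the receptor component Smo at -0.04 ± 0.27.

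Of 5 other myosin heavy chains, 5 were higher in the CA1 controls (median 0.34) and 0 passed, with Myh1 at 0.35 ± 0.18. Of 13 measured genes of striated muscle, the tissue of Myh7, only Myh1 and the troponin gene Tnnc1 were bright enough to be tested, with CA1 minus CA3 at 0.35 and -0.43 in the controls. Of 6 small GTPases related to Rasl11b 0 passed (median -0.48), with Rerg at -0.73 ± 0.28 in the controls, and Rasl12 at 0.02 ± 0.70 in the controls and 3.91 ± 1.21 in the lesion arrays (limma adjusted p = 0.642). The CCN genes Ccn1 and Ccn2, relatives of Ccn3, differed by 0.07 ± 0.61 and -0.63 ± 0.47. In the lesion arrays 0 of the 64 genes tested in these 9 lists passed, and 4 (6.25%) had an unadjusted p under 0.05, a share near the 5.06% of all probe sets.

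The genes outside the set with the profile most like its mean over the 8 arrays were the neuropeptide gene Cck (Pearson r = 0.986), Pou3f1 (0.984), the inositol trisphosphate kinase gene Itpka (0.983), Adissp (0.979) and Sidt1 (0.978). Each had CA1 above CA3 in the lesion arrays too, by 1.56 for Cck, 2.87 for Pou3f1, 1.78 for Itpka, 0.87 for Adissp and 0.96 for Sidt1. Cck had 22338 in the CA1 lesion array and 33964, 29174 and 22234 in the CA1 controls, against 7545 in the CA3 lesion array and 6895, 7874 and 4548 in the CA3 controls. Pou3f1 had 4719 in the CA1 lesion array and 12888, 5139 and 3972 in the CA1 controls, against 633 in the CA3 lesion array and 236, 320 and 243 in the CA3 controls, so that, like Ankrd63 and Myh7, it was above all CA3 controls in the CA3 lesion array. These correlations are given as a description: they rest mostly on the field difference that chose the genes, and all values share the same 8 arrays.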

How the data were processed

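The deposited table holds 1 intensity per probe set and array, scaled by the authors to a common level, as judged from trimmed means (2% from each end) of 2501 on every array. How probes were summarised is not given in the sources used. From these intensities, log2(value + 16) was computed. From 31099 probe sets, 57 for spiked or housekeeping controls were dropped, and those with a mean under the 40th percentile were left out, so that 18625 were tested, among them 12 of the 15 probe sets of the 10 genes. Names came from the platform annotation (20832 probe sets with 1 symbol, 436 with several and 9831 with none), and 20764 matched RefSeq by gene identifier with 0 symbols changed.

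The 4 groups were modelled together over 8 arrays in limma 3.58.1 under R 4.3.3 (variance trend, 4 residual degrees of freedom), with Benjamini-Hochberg adjustment and a threshold of 0.05. It was also run on simulated data drawn as independent arrays, with no effect of the replicate number. The check there was of the size of the estimates, so it cannot speak to variation shared between these arrays. The labels do not say that arrays came from separate animals or preparations, and p-values therefore reflect no more than the spread between these samples, possibly a technical one, and the number of arrays limits the precision. The genes, the lists and the rules were chosen with earlier results of these data known. The rule for named genes takes every probe set of the 10 genes, a gene's brightest first, up to 4 genes per list and contrast by p, and the 5 genes with the most similar profile. Other members are given by counts and ranges. The alternatives tried were a pseudocount of 1 or 64, quantile normalisation, a fit without the variance trend, no filter or one at the 60th percentile, a block for the replicate number, averaging a gene's probe sets, leaving out cross-hybridising probe sets, and each array left out in turn.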

Additional observations from a re-analysis of the deposited data

How the results depend on the processing

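The order of the fields in the lesion arrays held for 10 of 10 genes under every alternative that kept all of them; with the filter at the 60th percentile Wfs1 and Myh7 were left out and it held for 8 of 8. Median differences in the lesion arrays ran from 1.57 to 1.78. Of the alternatives, only quantile normalisation, the pseudocount and averaging probe sets could change a gene's difference between the lesion arrays. The others leave that difference as it is, because each field has 1 lesion array, so they are no check of the order. With a gene's probe sets averaged, the control median was 1.97 and the control differences of Mpped1, Gpr161, Adgrl2 and Myh7 were 2.29, 1.53, 1.70 and 1.76, while the CA1 lesion effect of Myh7 was -0.17 and the CA3 lesion effect of Man1a1 -0.057, both reversed; this setting brings in dim or discordant probe sets. Same-numbered controls of CA1 and CA3 correlated in their deviations at 0.155, 0.06 and 0.306, and each sample correlated best with its own number. The titles give these numbers but not their meaning, so they were not taken to pair the samples. The lesion effects above therefore set an array numbered 1 against controls numbered 1 to 3. With the replicate number as a block, 358 probe sets passed between the control fields and 39 between the lesion fields, including 2 of the 10 genes, Fibcd1 (3.36, limma adjusted p = 0.0311) and Mpped1 (3.04, adjusted p = 0.00229). In that fit 697 passed for the mean lesion effect, 258 for CA1 and 310 for CA3, with 0 of the 10 genes among them; the median of the 10 genes was -0.43 for CA1 and -0.012 for CA3, reversed, and Mpped1 in CA3 was -0.035, reversed. For the CA3 lesion effect 5 probe sets passed with quantile normalisation, 5 with a pseudocount of 1 and 5 without cross-hybridising probe sets. Without a variance trend 0 probe sets passed between the control fields. With single arrays left out, that count ran from 24 to 104 (98 with all arrays), falling to 47 or 27 when CA1 control 1 or 2 was dropped and to 29 or 24 when CA3 control 1 or 2 was, the counts for the lesion fields and the mean lesion effect from 0 to 1, the control median from 2.09 to 2.72, and the CA1 lesion median from -0.27 to 0.06, above 0 without CA1 control 1. The cause was not tested. Dim signal limits Myh7 and the second probe sets of Mpped1, Adgrl2 and Myh7. It also limits Wfs1 and Adgrl2 in CA3. On the log2 scale, CA3 controls 2 and 3 stood at 7.98 and 7.75 for Wfs1, and at 7.96 and 8.26 for Adgrl2. The untested second Mpped1 probe set had a mean of 8.17 in the CA1 controls. CA3 control 1 was brighter, at 9.89 for Wfs1 and 9.47 for Adgrl2.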
